A study of Mus musculus with 4 samples.

Results

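Livers of fasted mice labelled as lacking Cpt2 were set against a reference group through the authors' own gene-by-gene comparison, and every gene of that table was taken as a member. The table lists 23399 genes, of 54532 in the count table of the series, and 17475 of them carry an adjusted p below 1, which are the genes counted as tested here. The Cpt2 group is named for Cpt2 and for AlbCre, a Cre recombinase under the albumin promoter, which is active in hepatocytes. Other cells of the liver would keep the gene in such a mouse. The reference group has a short name that joins Rab30, Cpt2 and the letter f, and what that name stands for is not stated in the sources used here. The design text speaks of littermate controls and of a 24 h fast, and it places the Cpt2 samples in an earlier series. The age, sex and number of mice in both groups, and whether they were sequenced together, are not stated in the labels used here, so genotype and sequencing batch cannot be told apart. The samples of this series are 4 livers with a liver-specific Cpt1a knockout after a 24 h fast, and they serve as context only.

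Long-chain fatty acids enter mitochondria as carnitine esters. Cpt1a, in the outer mitochondrial membrane, makes the ester, the carrier Slc25a20 moves it across the inner membrane, and Cpt2, on the matrix side, turns it back into an acyl-CoA for beta-oxidation. In a fasted liver this route supplies energy for glucose production and acetyl-CoA for ketone bodies. Acyl-CoAs and fatty acids that are not burned can be stored in lipid droplets, shortened in peroxisomes, or bind the nuclear receptor PPARA, which switches on genes of fat use. The comparison asks how the liver transcriptome differs when the last step of this shuttle is removed.

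Expression differed widely between the groups. By the authors' deposited table, 3675 genes had an adjusted p below 0.05 (21.0% of those tested), which is the rule for a call here. Of these, 1807 were higher in the Cpt2 group (10.3%) and 1868 lower (10.7%). At least 2-fold changes were called for 836 higher genes (4.78%) and 1011 lower genes (5.79%) in the authors' deposited table, and at least 16-fold changes for 103 and 90. The group means are the authors' normalized counts, with no value per mouse, so no spread within a group can be shown. The means summed to 13219936 in the Cpt2 group and 16180667 in the reference group, a log2 ratio of −0.292. If both groups were scaled to equal sums, the called genes changed at least 2-fold would split into 1265 higher and 765 lower. Every median given below would move up by that 0.292, and for the pathway and marker lists the equal-sums value is printed where it changes the sign or moves the median by over 1.5 times. The deposited adjusted p was kept in this rescaling and no test was rerun, so which genes would be called under equal sums is not known. Among the genes called here no log2 fold change would change sign, since the smallest was 0.301 in the authors' deposited table.

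The most abundant transcripts moved down far more often than up. Among 180 genes with a mean of at least 10000 normalized counts, the authors' deposited table called 92 lower and 23 higher, which is 63.9% of them. Among genes with a mean below 10, 6.35% were called. Of the 100 nuclear protein-coding genes with the highest mean per kilobase of gene model, 60 were lower, 11 higher and 29 not called in the authors' deposited table. Alb, serum albumin, took 7.72% of the summed reference means and 3.56% of the summed means of the Cpt2 group. Its mean was 1248899 in the reference group and 470015 in the Cpt2 group (log2 fold change −1.41, adjusted p = 5.85e-17) in the authors' deposited table.

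**Figure D1:**
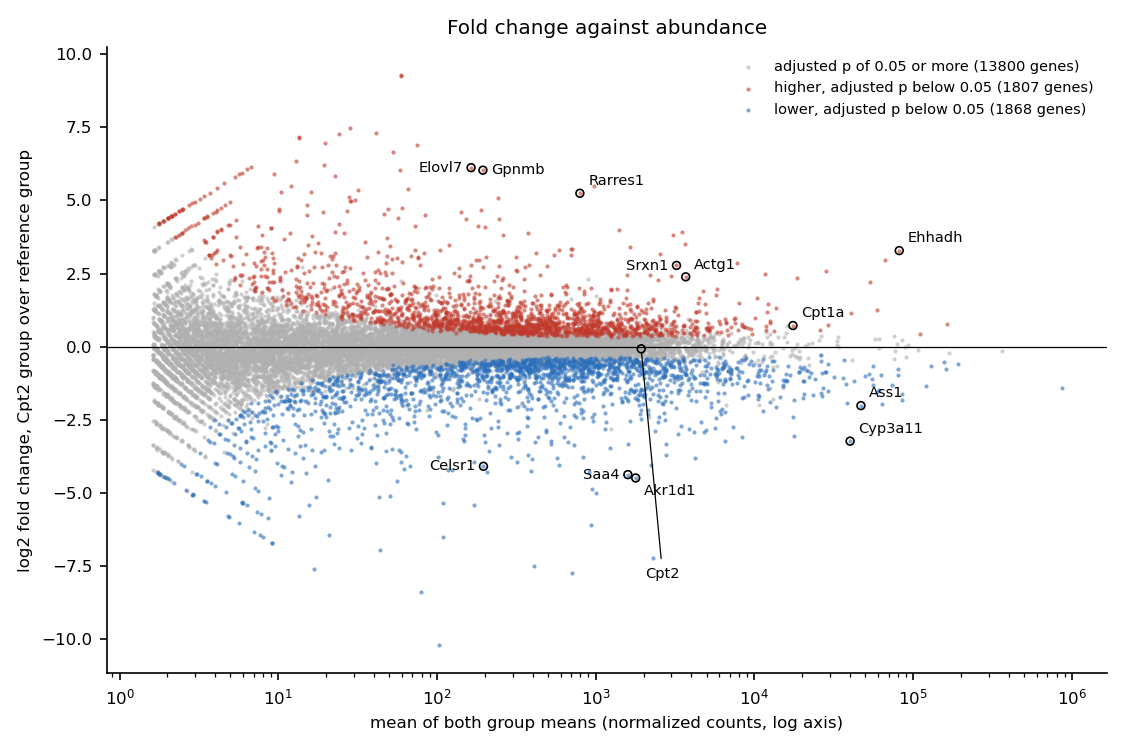
Each point is a tested gene, with the mean of both group means in normalized counts on a log axis and the log2 fold change of the Cpt2 group over the reference group. Circled points are labelled genes, red points (1807) and blue points (1868) passed an adjusted p of 0.05, and at the right end, among the most abundant genes, blue points outnumber red ones.

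The transcript of the targeted gene did not mark the groups. Cpt2 (ENSMUSG00000028607, chr4:107903981-107923610, minus strand, GRCm38) had means of 1983 in the reference group and 1883 in the Cpt2 group, a log2 fold change of −0.07 (adjusted p = 0.837) in the authors' deposited table. Reads from the rest of the gene can hide the loss of an exon, so the labels could not be checked this way and the group is called the Cpt2 group. The other enzyme of the shuttle, Cpt1a (ENSMUSG00000024900, chr19:3323301-3385732, plus strand), rose from 13192 to 21747 (log2 fold change 0.72, adjusted p = 4.29e-04) in the authors' deposited table. Rab30, a small GTPase of the Golgi whose name stands in that of the reference group, rose from 550 to 2183 (1.99, adjusted p = 9.24e-18) in the authors' deposited table. Of 69 tested genes within 5 Mb of Cpt2, 10 rose and 6 fell in the authors' deposited table (23.2% called), and of 52 around Rab30 4 were higher and 6 lower (19.2%), each near the share of all genes.

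The genes with the smallest adjusted p among those that rose at least 2-fold held enzymes of peroxide and fat metabolism, cytoskeletal genes and genes barely present in the reference livers. Srxn1, sulfiredoxin, which repairs oxidised peroxiredoxins, rose from 821 to 5631 (log2 fold change 2.78, adjusted p = 1.83e-84) in the authors' deposited table. Ehhadh (chr16:21761287-21787807), the bifunctional enzyme of peroxisomal beta-oxidation, rose from 15185 to 147987, a 9.75-fold change (adjusted p = 3.40e-54) in the authors' deposited table. In the Cpt2 group it stood at 49644 normalized counts per kilobase, above the level of Cyp3a11 in the reference group (14204). Gpnmb (chr6:49036546-49070929), a membrane glycoprotein of phagocytes that is also described as a secreted liver factor, went from 5.56 to 384 (log2 fold change 6.04, adjusted p = 1.54e-57) in the authors' deposited table. Elovl7, an elongase of long-chain fatty acids, went from 4.76 to 323 (6.12, adjusted p = 2.47e-50), and Rarres1, a retinoid-induced gene, from 40.9 to 1548 (5.25, adjusted p = 1.74e-61) in the authors' deposited table. Sema3b, a secreted semaphorin, rose from 13.5 to 468, Endod1, an endonuclease-like protein, from 22.3 to 469, and Ccdc120, a centrosome protein, from 21.7 to 381 in the authors' deposited table. Actg1, cytoplasmic gamma actin, rose from 1184 to 6190, Pgd, of the pentose phosphate pathway, from 241 to 996, and Uap1l1 from 111 to 983 in the authors' deposited table. The 6 called protein-coding genes with the largest rise at a mean of at least 100 were Elovl7, Gpnmb, Rpl34, Rarres1, Sema3b and Ly6d, a surface antigen that went from 14.2 to 362 in the authors' deposited table.

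Genes that fell at least 2-fold with the smallest adjusted p included many enzymes and secreted proteins of the liver. Saa4 (chr7:46727998-46732603), an apolipoprotein of the serum amyloid A family, fell from 3040 to 146 (log2 fold change −4.38, adjusted p = 9.67e-88) in the authors' deposited table. Akr1d1, the reductase that shapes the bile acid ring, fell from 3418 to 152 (−4.49, adjusted p = 8.21e-56), and Cyp3a11, a main drug-oxidising cytochrome, from 72343 to 7687 (−3.23, adjusted p = 5.24e-54) in the authors' deposited table. Ass1, argininosuccinate synthase of the urea cycle, fell from 75101 to 18526 (−2.02, adjusted p = 2.65e-52) in the authors' deposited table. Hsd11b1, which regenerates active glucocorticoid, fell from 9937 to 2174, Ppp1r3b, which brings a phosphatase to glycogen, from 2890 to 290, and Slc1a2, a glutamate transporter of pericentral hepatocytes, from 4657 to 820 in the authors' deposited table. Proz, a plasma cofactor of coagulation control, fell from 4426 to 920, Prodh2, a hydroxyproline dehydrogenase, from 4681 to 1259, Car14, a carbonic anhydrase, from 955 to 96.0, Nlrp6, an innate sensor, from 4186 to 562, and Celsr1, a planar polarity cadherin, from 371 to 21.7 in the authors' deposited table. The largest falls among called protein-coding genes with a mean of at least 100 were those of Ren1, renin (1415 to 6.55, adjusted p = 5.07e-04), Fam107a (806 to 4.45), Acmsd, which diverts tryptophan carbon from NAD synthesis (1850 to 27.2), Tff3, a trefoil peptide (333 to 7.81), Fam222a (212 to 5.18) and Cyp2c39 (1843 to 63.4) in the authors' deposited table. With no value per mouse, it cannot be seen whether 1 mouse sets any of these means.

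**Figure D2:**
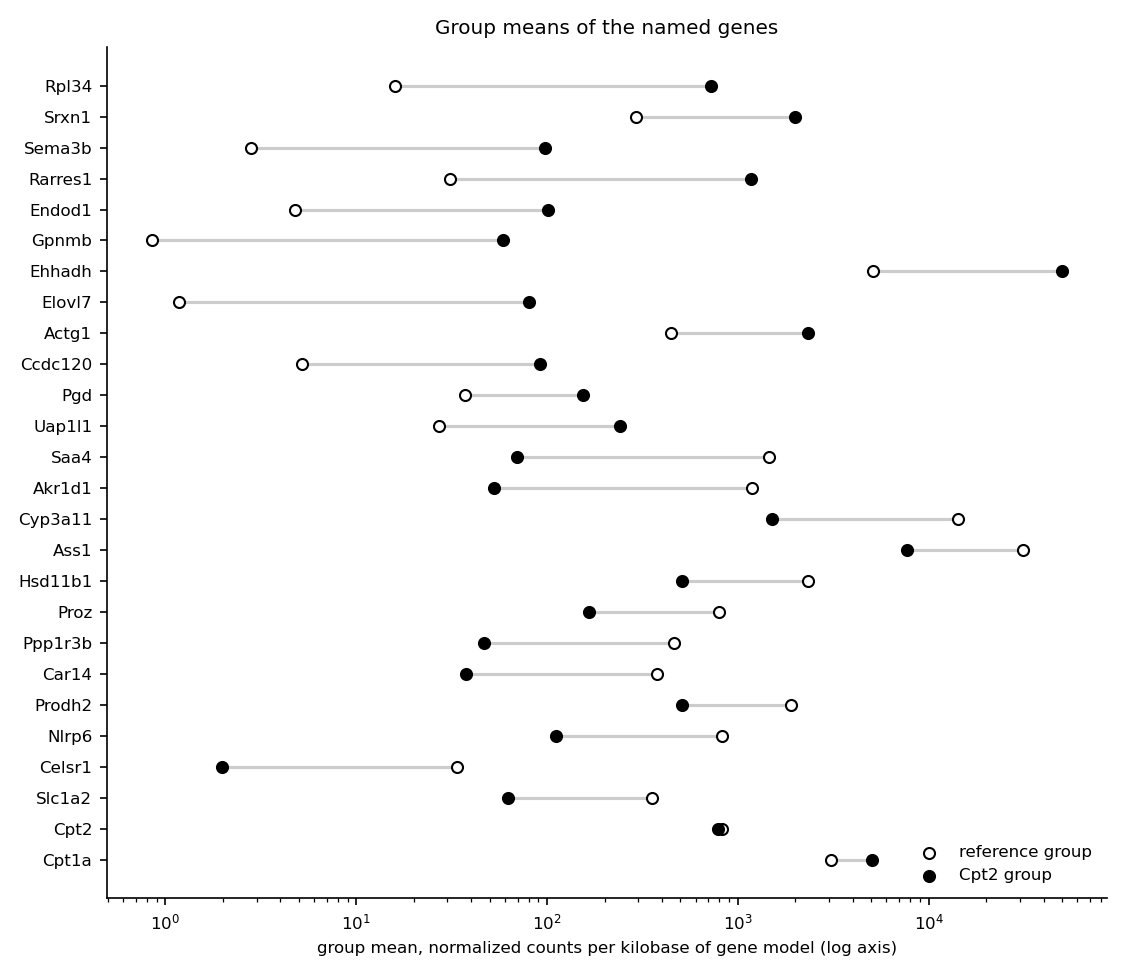
Group means in normalized counts per kilobase of gene model, on a log axis, for the 12 higher and 12 lower genes with the smallest adjusted p and for Cpt2 and Cpt1a, with open points for the reference group and filled points for the Cpt2 group. The points of Cpt2 (830 and 788) nearly coincide, while Ehhadh moved from 5094 to 49644 and Saa4 from 1452 to 69.8.

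Genes of fat oxidation rose at several steps, in mitochondria and in peroxisomes, along with other targets of PPARA. Of 52 tested PPARA targets, 40 were higher and none lower in the authors' deposited table (76.9% called), with a median log2 fold change of 0.93 against −0.03 over all tested genes. Cidec, which enlarges lipid droplets, rose from 586 to 6701 (log2 fold change 3.51, adjusted p = 1.11e-38) in the authors' deposited table. Cd36, a fatty acid transporter, rose from 285 to 3003 (3.39, adjusted p = 1.41e-29), and Pdk4, the kinase that shuts off pyruvate dehydrogenase, from 403 to 5720 (3.83, adjusted p = 1.19e-24) in the authors' deposited table. Among the thioesterases that release fatty acids from CoA, Acot1 rose from 1899 to 13678 and Acot2 from 166 to 2627, whereas Acot3 went from 345 to 1055 without passing the test in the authors' deposited table. Apoa4, an apolipoprotein of fat export, rose from 15009 to 117333, and Vnn1, a pantetheinase, from 487 to 2640 in the authors' deposited table. The receptor gene Ppara itself rose from 1810 to 2992 (0.72, adjusted p = 0.0386) in the authors' deposited table. The 12 targets that did not pass included the widely used markers Angptl4 (5472 and 4045), Cyp4a10 (66483 and 84759) and Plin5 (3699 and 3996), with the reference mean given ahead of that of the Cpt2 group, in the authors' deposited table.

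Of 17 carnitine shuttle genes, 6 were higher and none lower (median 0.23, and 0.521 under equal sums) in the authors' deposited table. That is 35.3% called, against 21.0% of all genes. Crat and Crot, the acyltransferases of short chains and of peroxisomal products, rose from 1823 to 4603 and from 6522 to 17824 in the authors' deposited table. Slc22a5, which carries carnitine into the cell, rose from 1595 to 2970, Acsl5, an acyl-CoA synthetase, from 2787 to 4174, and Slc25a20, the partner of Cpt2, from 2382 to 3330 (log2 fold change 0.48, adjusted p = 0.00352) in the authors' deposited table. Of 22 genes of mitochondrial beta-oxidation, 11 were higher and 1 lower (median 0.41, and 0.704 under equal sums) in the authors' deposited table. Several enzymes of long chains rose, with Hadha, the large subunit of the trifunctional protein, going from 6799 to 13422 (0.98, adjusted p = 6.45e-08) and Acadl, a long-chain dehydrogenase, from 4680 to 8456 in the authors' deposited table. Acad12, a dehydrogenase of the same family, rose from 208 to 592 (1.51) in the authors' deposited table. The enzymes of medium and short chains, Acadm (10090 and 10917), Acads (2873 and 3104) and Hadh (4292 and 4071), did not pass the test in the authors' deposited table. The member that fell, Acadsb (2503 to 1012), acts mainly on branched-chain products of amino acid breakdown.

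Peroxisomal genes moved in both directions. Of 40 tested, 13 were higher and 6 lower (median 0.32, and 0.612 under equal sums) in the authors' deposited table. The thiolase Acaa1b of straight-chain oxidation went from 18920 to 88147 (log2 fold change 2.22, adjusted p = 6.14e-21) in the authors' deposited table. Pex11a, which divides peroxisomes, rose from 2609 to 8874 (1.77), and the import factor Pex19 from 1994 to 3550 in the authors' deposited table. The trans-enoyl reductase Pecr fell from 2023 to 514 (adjusted p = 1.37e-31) in the authors' deposited table. Enzymes of branched chains and bile acid precursors differed among themselves, with Phyh (42674 to 20894), Acox2 (5700 to 2678) and Amacr (2315 to 1482) falling, Hsd17b4 (9532 to 14027) rising, and Hacl1 (677 and 668), Acox3 (413 and 424) and Scp2 (55719 and 66759) not called, in the authors' deposited table. Among 18 genes of omega-oxidation, 3 rose and 5 fell (median −0.09, which turns to 0.201 under equal sums) in the authors' deposited table. The fatty aldehyde dehydrogenase Aldh3a2 rose from 6108 to 31035 and Cyp4a14, a fatty acid hydroxylase, from 119922 to 207107, while Cyp4f14 fell from 1612 to 327 and Cyp4f15 from 3924 to 1409 in the authors' deposited table.

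Of 10 ketogenesis genes, 4 were higher and 1 lower (median 0.36, and 0.654 under equal sums) in the authors' deposited table. The ketone and lactate exporters Slc16a1 and Slc16a6 rose from 837 to 1482 and from 37.3 to 101 in the authors' deposited table. Bdh1, which reduces acetoacetate, rose from 2205 to 3946 (log2 fold change 0.84, adjusted p = 0.0228), and the cytosolic Bdh2 fell from 73.0 to 22.9 in the authors' deposited table.

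Genes of fat storage rose as well. Of 34 lipid droplet and triglyceride genes, 15 were higher and 3 lower (median 0.59) in the authors' deposited table. Besides Cidec, the droplet coat proteins Plin2 (7993 to 48148, adjusted p = 1.78e-31), Plin3 (467 to 1323) and Plin4 (846 to 4085) rose, and the liver-rich Plin5 did not pass, in the authors' deposited table. Gpat3, which starts triglyceride assembly, rose from 215 to 642, Lipa, the lysosomal lipase, from 2157 to 6795, and Mttp, which loads lipid onto apolipoprotein B, from 5093 to 9973 (log2 fold change 0.97, adjusted p = 2.33e-11) in the authors' deposited table. Hilpda, an inhibitor of adipose triglyceride lipase, rose from 51.3 to 185, and Pnpla2, that lipase, from 3988 to 6287 in the authors' deposited table. The members that fell were Lpin1, a phosphatidate phosphatase and coactivator (10744 to 2267), Gpat4 (7778 to 4140) and Agpat2 (2373 to 1519) in the authors' deposited table. Of 4 tested adipocyte markers only Fabp4 was called (152 to 358), Adipoq was at 3.39 and 0, and the list summed to 358 in the reference and 636 in the Cpt2 group in the authors' deposited table. The part of such cells in the lipid droplet counts was not tested.

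Genes for the synthesis of fat moved in both directions, and the called genes of cholesterol synthesis were lower. Of 22 genes of de novo lipogenesis, 6 were higher and 8 lower (median −0.03, and 0.258 under equal sums) in the authors' deposited table. Thrsp, an inducer of lipogenesis, fell from 262 to 38.1 (log2 fold change −2.79, adjusted p = 1.45e-15), Fasn, fatty acid synthase, from 1531 to 629, Elovl6 from 417 to 163 and Srebf1, the controlling factor, from 795 to 391 in the authors' deposited table. In the other direction, Elovl5, an elongase of polyunsaturated chains, rose from 5004 to 15661 (1.65, adjusted p = 6.11e-14), and Me1, which makes NADPH, from 1632 to 3864 in the authors' deposited table. Of 25 cholesterol synthesis genes, 7 were lower and none higher (median −0.42, and −0.132 under equal sums) in the authors' deposited table. Ebp, a sterol isomerase, fell from 2205 to 957, and Insig1, a sensor protein that restrains the pathway, from 1473 to 615 in the authors' deposited table. Hmgcs1 (856 and 855), an early enzyme of the pathway, did not pass in the authors' deposited table.

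Bile acid genes fell in 13 and rose in 2 of 23 (median −0.74, and −0.444 under equal sums) in the authors' deposited table. Besides Akr1d1, Cyp7a1, the rate-limiting enzyme of the classic route, fell from 2258 to 206 (log2 fold change −3.46), and Cyp7b1, of the alternative route, from 3530 to 716 (−2.30, adjusted p = 4.09e-13) in the authors' deposited table. Abcb11, the bile salt export pump, fell from 4243 to 707 (−2.58, adjusted p = 1.07e-23), and Nr0b2, the repressor SHP, from 321 to 20.9 (−3.95, adjusted p = 5.49e-18) in the authors' deposited table. Slc27a5, the bile acid-CoA ligase, fell from 17124 to 6869 in the authors' deposited table. The transporters Abcc3 (4826 to 8358) and Abcb4 (6373 to 10377), which export bile acids to blood and phospholipid to bile, were those that rose in the authors' deposited table. Cyp8b1 (10706 and 13370) and the bile acid receptor Nr1h4 (2086 and 1949) did not pass in the authors' deposited table.

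Genes of the urea cycle and of amino acid breakdown were lower almost without exception. By the authors' deposited table, 27 of 29 fell and none rose (93.1% called), with a median log2 fold change of −1.26, and the remaining members Slc25a13 (−0.36) and Bckdha (−0.29) did not pass. Cth, of cysteine synthesis, fell from 15021 to 1760 (−3.09, adjusted p = 7.73e-29) in the authors' deposited table. The tyrosine aminotransferase Tat fell from 101068 to 26106, Uroc1, of histidine breakdown, from 7541 to 2281, and Otc, of the urea cycle, from 5228 to 1224 in the authors' deposited table. The smallest called falls in the urea cycle were those of Arg1 (42423 to 31134, −0.45) and Cps1 (159190 to 100639, −0.66) in the authors' deposited table. Gluconeogenesis genes fell in 9 and rose in 3 of 24 (median −0.11, and 0.18 under equal sums) in the authors' deposited table. G6pc, which releases glucose, fell from 12770 to 1886 (−2.76, adjusted p = 9.68e-25), Fbp1 from 16308 to 5094 (−1.68, adjusted p = 1.58e-25), Sds, serine dehydratase, from 6750 to 963, and Slc37a4, the glucose-6-phosphate carrier, from 6620 to 2801 in the authors' deposited table. Pck1, the cytosolic carboxykinase, was at 86162 and 64946 without passing, whereas the mitochondrial form Pck2 rose from 60.1 to 169 in the authors' deposited table.

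**Figure D3:**
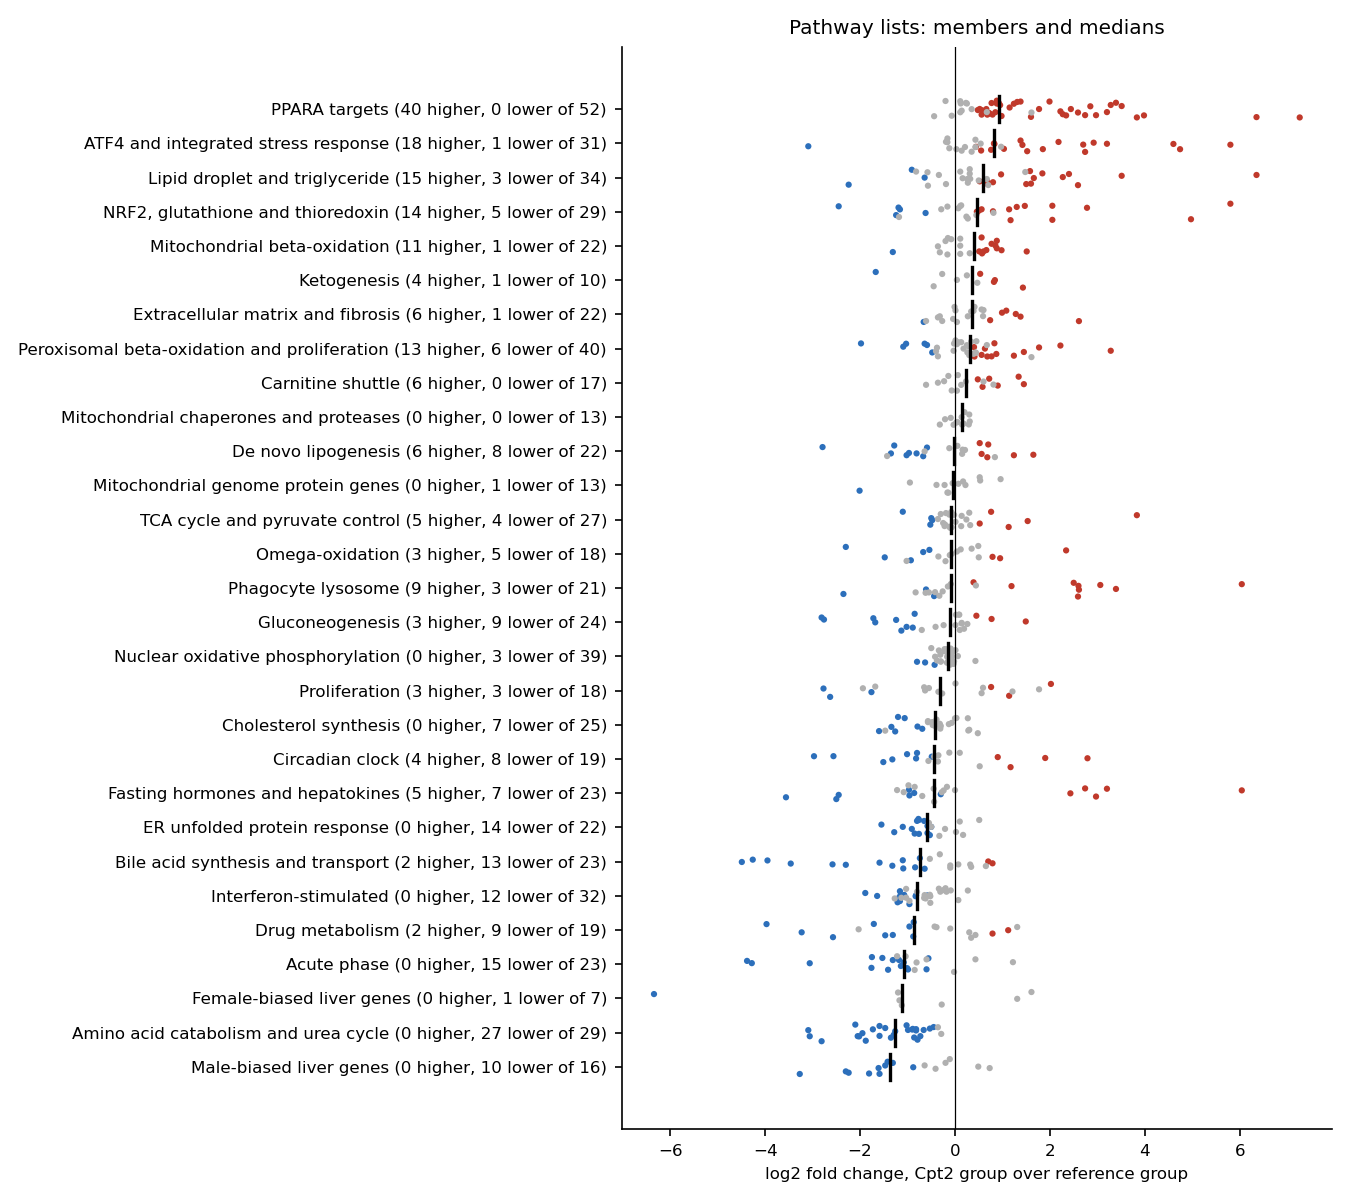
Log2 fold changes of the tested members of 29 pathway lists, ordered by the list median (black bar), with red for called higher, blue for called lower and grey for not called. PPARA targets lie at the top (median 0.93), and the amino acid and urea cycle list, with 27 blue points of 29, near the bottom (median −1.26).

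Targets of ATF4, the factor that translates amino acid and mitochondrial stress into gene expression, were higher in 18 and lower in 1 of 31 (median 0.82) in the authors' deposited table. Nupr1, a small stress-induced chromatin protein, rose from 10.9 to 273 (log2 fold change 4.60, adjusted p = 1.64e-28), and Psat1, of serine synthesis, from 4.41 to 117 (4.74, adjusted p = 8.10e-21) in the authors' deposited table. Mthfd2, a mitochondrial folate enzyme, rose from 21.9 to 99.4 and Slc3a2, a subunit of amino acid exchangers, from 548 to 1577 in the authors' deposited table. The circulating factors Fgf21 and Gdf15 rose from 128 to 862 and from 82.8 to 760 in the authors' deposited table. Trib3, a pseudokinase, rose from 123 to 444, Ddit3, the factor CHOP, from 90.4 to 160, and Atf3 from 36.4 to 238 in the authors' deposited table. Cth, the member that fell, is also an amino acid catabolic enzyme of the list above. Asns (101 and 116), Chac1 (33.4 and 45.1), Sesn2 (328 and 294), Phgdh (2.34 and 2.39) and Atf4 itself (1499 and 2020) did not pass in the authors' deposited table. The glutamate and cystine exchanger gene Slc7a11 was listed at 0 in the reference group and at 10.7 in the Cpt2 group in the authors' deposited table.

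Since members of this list moved together, the 250 bases before their gene starts were searched on both strands for the C/EBP-ATF response element, the DNA element that ATF4 binds with a partner. The letters used were TGATGNAAT, from RefSeq promoters on GRCm38.p6 matched by symbol for 11692 tested genes. They were found in 5 of 27 list members with a promoter, in 0.650% of all promoters and in 0.812% of those of called higher genes. The 5 windows are shown because they hold the element, in capitals, in genes of both kinds, those that rose and one that did not. Each is written 5′ to 3′ along the gene's strand, and ATTGCATCA and ATTTCATCA are the element read on the opposite strand.
Fgf21, chr7:45615597-45615655, minus strand: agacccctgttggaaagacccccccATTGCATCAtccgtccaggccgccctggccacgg
Pycr1, chr11:120643818-120643876, minus strand: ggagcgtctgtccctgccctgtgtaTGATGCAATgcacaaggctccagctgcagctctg
Nupr1, chr7:126625548-126625606, minus strand: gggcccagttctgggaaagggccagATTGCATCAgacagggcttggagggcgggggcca
Aars, chr8:111033704-111033762, plus strand: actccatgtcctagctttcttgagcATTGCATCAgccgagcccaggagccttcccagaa
Gars, chr6:55037945-55038000, plus strand: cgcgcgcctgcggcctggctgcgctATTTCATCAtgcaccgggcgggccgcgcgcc
Fgf21, Nupr1 and Pycr1, of proline synthesis, changed by 2.74, 4.60 and 2.92 (log2) in the authors' deposited table. Gars, a tRNA synthetase, rose from 778 to 1138 (0.55), and Aars, another, was at 2840 and 2539 (−0.16, not called) in the authors' deposited table, so the letters were present in genes with unlike changes.

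The same windows were searched for elements of PPARA and NRF2. In all, 6 versions of the 3 elements were tried, and the letters kept were settled after their matches had been seen. The strict DR1 repeat of PPARA, AGGTCANAGGTCA, was in none of 41 target promoters and in 0.0599% of all. The core of the NRF2 element, TGACNNNGC, was in 7 of 25 list members and in 13.7% of all. Its strict form TGACTCAGC was in 2 of 25 and in 0.470% of all. The strict letters TGATGCAAT of the C/EBP-ATF element were in 4 of 27 members of the ATF4 list and in 0.180% of all. The looser DR1 repeat AGGNCANAGGNCA was in 2 of 41 target promoters and in 0.334% of all. The 2 looser matches are shown as examples from genes that rose, Fabp1, a fatty acid binding protein (7916 to 19570 in the authors' deposited table), and Gdf15, with the repeat in capitals. The capitals of Fabp1 are the repeat read on the opposite strand, and those of Gdf15 are on the gene's own strand.
Fabp1, chr6:71199787-71199849, plus strand: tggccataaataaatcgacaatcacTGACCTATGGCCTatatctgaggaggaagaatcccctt
Gdf15, chr8:70632474-70632536, minus strand: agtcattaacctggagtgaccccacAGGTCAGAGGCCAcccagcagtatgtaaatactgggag
A match of letters does not show that a factor binds there, and a promoter without one may carry the element elsewhere.

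Antioxidant genes under NRF2, glutathione and thioredoxin enzymes were higher in 14 and lower in 5 of 29 (median 0.46, and 0.753 under equal sums) in the authors' deposited table. Besides Srxn1 and Pgd, Gclc, the catalytic subunit of glutathione synthesis, rose from 2587 to 7150 (log2 fold change 1.47, adjusted p = 1.33e-08), and Gsr, which reduces glutathione, from 1296 to 2848 (1.14, adjusted p = 1.68e-13) in the authors' deposited table. Gsta1, a glutathione transferase, went from 1.58 to 55.2, Nqo1, a quinone reductase, from 85.7 to 211 and Hmox1, heme oxygenase, from 256 to 1062 in the authors' deposited table. The members that fell were mostly other transferases, Gsta3 (10858 to 4585), Gstp1 (17862 to 7836), Gsta4 and Gsta2, with the metallothionein Mt2 (316 to 57.7) in the authors' deposited table. Gclm (3581 and 3204), the partner of Gclc, and Nfe2l2, the gene of NRF2 (896 and 983), did not pass in the authors' deposited table.

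Genes of endoplasmic reticulum folding and of its unfolded protein response went the other way. Of 22 genes, 14 were lower and none higher (median −0.58, and −0.286 under equal sums, with 9 lower at an adjusted p below 0.01) in the authors' deposited table. Edem1, of protein disposal, fell from 2613 to 1075 (log2 fold change −1.28, adjusted p = 5.19e-15), and Pdia6 from 2091 to 977 in the authors' deposited table. The cochaperones Dnajb11 and Dnajc3 fell from 1129 to 668 and from 4664 to 2744, and Calr, calreticulin, from 7913 to 4655 in the authors' deposited table. The main chaperone Hspa5 was at 9766 and 6659 (−0.55, adjusted p = 0.0664), and Xbp1 at 2627 and 2961 (0.17), in the authors' deposited table.

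Mitochondrial upkeep genes moved little. None of 13 mitochondrial chaperones and proteases was called by the authors' adjusted p (median 0.14, and 0.43 under equal sums), and the smallest adjusted p was that of Hspd1 (8126 and 10088, adjusted p = 0.0688) in the authors' deposited table, followed by Afg3l2, Dnaja3 and Clpp. At an unadjusted p below 0.05 there were 2, Hspd1 and Afg3l2, against 5344 of all 17475 tested genes in the authors' deposited table. Of 39 nuclear oxidative phosphorylation genes, 3 were lower and none higher (median −0.14, and 0.15 under equal sums) in the authors' deposited table, with Sdhb (3514 to 2013), Ndufs8 (825 to 534) and Ndufb5 (1416 to 1053) called. Of 13 protein genes of the mitochondrial genome, mt-Nd3 was lower (225 to 55.5, log2 fold change −2.01) and the others, such as mt-Co1 (381707 and 341681), mt-Atp6, mt-Co2 and mt-Nd4l, were not called (median −0.05, and 0.241 under equal sums) in the authors' deposited table. Tricarboxylic acid cycle and pyruvate genes had 5 higher and 4 lower of 27 (median −0.08, and 0.207 under equal sums) in the authors' deposited table. That is 33.3% called, against 21.0% of all genes. Besides Pdk4, Cs, citrate synthase, rose from 1183 to 2585 (1.13, adjusted p = 5.07e-09), Mpc1, of the pyruvate carrier, from 542 to 918, and Fh1, fumarase, fell from 7882 to 3665 in the authors' deposited table.

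Secreted proteins of the liver were mostly lower. Acute phase genes fell in 15 of 23 and rose in none (median −1.08) in the authors' deposited table. The fibrinogen chains Fga, Fgb and Fgg fell from 39486 to 14856, from 43062 to 14903 and from 31248 to 9277, Serpina3n, a protease inhibitor, from 12842 to 3802, and Cp, the copper protein ceruloplasmin, from 16387 to 8144 in the authors' deposited table. The amyloid genes Saa1 and Saa3 fell from 1722 to 88.7 and from 39.2 to 4.73, while Crp stayed at 2975 and 2923 without a call in the authors' deposited table. In families gathered after their values were seen, 78.3% of coagulation, 66.7% of complement and 76.5% of Serpina genes were called. Over all genes the share was 21.0%. Of these families, 18 of 23, 12 of 18 and 12 of 17 genes were lower in the authors' deposited table, with none, none and 1 higher. Among them were Plg, plasminogen (30970 to 10108), Serpind1, heparin cofactor (8488 to 1110), Mbl2, mannose-binding lectin (3145 to 629), C9 (6214 to 1737) and Serpina6, which binds corticosteroids (1099 to 66.8), in the authors' deposited table. Serpina7, which binds thyroid hormone, was the member that rose (11.8 to 73.7) in the authors' deposited table.

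Fasting hormones and hepatokines split, with 5 higher and 7 lower of 23 (median −0.45, and −0.163 under equal sums) in the authors' deposited table. Gpnmb, Apoa4, Gdf15, Fgf21 and Inhbe, an inhibin chain made by liver (687 to 3714), rose in the authors' deposited table. Enho, the adropin gene, fell from 393 to 33.4 (log2 fold change −3.56, adjusted p = 1.25e-22), Fetub from 7645 to 3914 and Igf1 from 9179 to 5057 in the authors' deposited table.

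Drug metabolism genes fell more often than they rose, and male-biased genes were mostly lower too. Drug metabolism genes fell in 9 and rose in 2 of 19 (median −0.87, and −0.576 under equal sums) in the authors' deposited table, with Cyp2c54 going from 1989 to 335 (log2 fold change −2.57, adjusted p = 1.35e-24), Cyp2c50 from 2643 to 954 and Cyp1a2 from 3401 to 1373. Nr1i3, the xenobiotic receptor CAR, rose from 457 to 995 in the authors' deposited table. Male-biased genes fell in 10 of 16 and rose in none (median −1.36) in the authors' deposited table, among them Mup1 (365 to 37.8), Mup7 (128078 to 42011), Serpina1e (89826 to 32363), C6 and Cyp7b1. Female-biased genes had 1 lower of 7 tested (14.3% called, below the share of all genes, median −1.12, and 0 at a mean of at least 10), Cyp3a16, at 14.1 in the reference group and listed at 0 in the Cpt2 group, while Cyp17a1 (897 and 389), Prom1 (14.8 and 6.83) and Acot3 did not pass in the authors' deposited table. Major urinary proteins and the Cyp2c, Cyp3a and Serpina1 genes are near-identical copies, so which copy a read was counted for is uncertain. In families gathered after their values were seen, 11 of 18 Mup genes, 11 of 13 Cyp2c genes and 4 of 5 Cyp3a genes were lower and none was higher in the authors' deposited table. That is 61.1%, 84.6% and 80.0% called, against 21.0% of all genes.

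Markers of hepatocytes were lower, and those of other liver cells mostly did not pass. Hepatocyte markers fell in 8 of 13 and rose in none (median −0.66, and −0.364 under equal sums) in the authors' deposited table, and their means summed to 1715584 in the reference group and 784563 in the Cpt2 group, most of it Alb. Serpina1a fell from 35355 to 11255, and the controlling factor Hnf4a was at 14146 and 11059 (log2 fold change −0.36, adjusted p = 0.324) in the authors' deposited table. In bulk liver, fewer cells of a type and less RNA per cell cannot be told apart. Periportal markers fell in 12 and rose in 1 of 15 (median −1.88) in the authors' deposited table, with Pigr, the immunoglobulin receptor, going from 22005 to 5296 (−2.05, adjusted p = 3.89e-22), Aldh1b1 from 779 to 90.6 and Cyp2f2 from 10188 to 2324. Hsd17b13, a lipid droplet protein, was the periportal marker that rose (9097 to 16106) in the authors' deposited table. Pericentral markers fell in 12 and rose in 1 of 15 as well (median −0.89, and −0.594 under equal sums) in the authors' deposited table, with Gulo, of vitamin C synthesis, going from 4200 to 1086, Glul, glutamine synthetase, from 9585 to 3208 and Axin2, a Wnt target, rising from 70.0 to 242. Hepatocyte and zone markers fell alongside genes of amino acids, secreted proteins, bile acids and drugs, but some of these lists share genes with the markers. Arg1, Cps1, Serpina1a, Fgb and Cyp1a2 were counted on both sides, so these falls are not independent. The part of hepatocyte markers in those counts was not tested.

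Among the other cells, stellate cell markers had 1 higher of 12 (Ngfr, 11.4 to 33.8, median 0.36, and 0.654 under equal sums, summed means 5692 and 6856), with Hgf, Reln and Pdgfrb not called, in the authors' deposited table. Endothelial markers had 1 lower of 12 (Clec4g, 547 to 348, median −0.14 and 0.156 under equal sums, summed means 5579 and 4877), with Stab1, Lyve1 and Cdh5 not called, in the authors' deposited table. Cholangiocyte markers had 1 lower of 9 (Sox9, 70.9 to 14.7, median −0.47, and −0.175 under equal sums), with Spp1, Krt19 and Anxa3 not called, in the authors' deposited table. Lymphocyte markers had 1 lower of 15 (Cd4, 17.1 to 4.70, median −0.02, and 0.269 under equal sums), and 12 of the 15 had a mean below 10 in the authors' deposited table. Neutrophil markers had 0 of 3 called and 0 at an unadjusted p below 0.05 (adjusted p of 0.619 to 0.908 for S100a9, Csf3r and S100a8), and the 1 tested exocrine pancreas marker, Cela1, was at 107 and 85.6 without a call, in the authors' deposited table. Red blood cell markers were lower in 4 of 5 (median −1.42, summed means 5361 and 1904), with Hbb-bs going from 2038 to 760 and Hba-a1 from 2428 to 708 in the authors' deposited table. Less blood in the tissue and other sources of that difference were not tested.

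**Figure D4:**
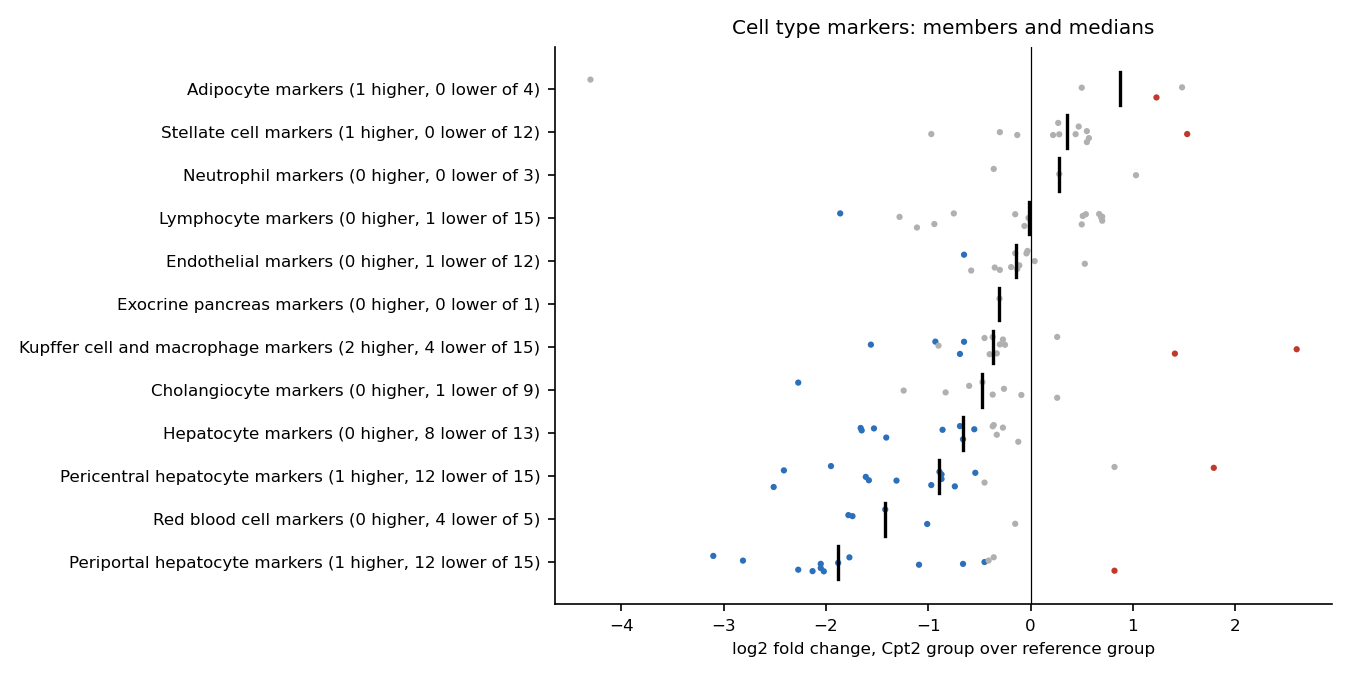
Log2 fold changes of the tested members of 12 lists of cell type markers, ordered by the list median (black bar), with red for called higher, blue for called lower and grey for not called. Both hepatocyte zone lists lie to the left (medians −1.88 and −0.89), and the endothelial list is centred near 0 with 1 called member of 12.

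Kupffer cell and macrophage genes did not move as 1 group. Of 15 markers, 2 were higher and 4 lower (median −0.37, and −0.078 under equal sums, summed means 5750 and 4405) in the authors' deposited table. The resident cell markers Cd163 (856 to 291, adjusted p = 2.58e-12), Clec4f (1268 to 787), Vsig4 and Timd4 fell, and Adgre1 (155 and 123), Csf1r (582 and 484) and Lyz2 (351 and 272) did not pass in the authors' deposited table. Cd68, a lysosomal glycoprotein of phagocytes, rose from 90.4 to 550 (log2 fold change 2.60, adjusted p = 2.96e-25) and Fcer1g from 24.4 to 65.4 in the authors' deposited table. A list of phagocyte lysosome genes had 9 higher and 3 lower of 21 (median −0.09, and 0.205 under equal sums) in the authors' deposited table. Gpnmb, Plin2 and Cd36 led it, followed by Cd63, a tetraspanin of late endosomes (43.4 to 365, adjusted p = 3.47e-27), and Lgals3, galectin 3 (38.1 to 217), in the authors' deposited table. Trem2 (9.86 and 8.78), Itgax (7.87 and 5.94) and Spp1 (279 and 157), which mark lipid-laden macrophages, did not pass, and Atp6v0d2 fell from 24.1 to 4.75 in the authors' deposited table. Which cells carry the risen transcripts was not tested.

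Of 32 interferon-stimulated genes, 12 were lower and none higher (median −0.81, and −0.52 under equal sums) in the authors' deposited table, and 6 were lower at an adjusted p below 0.01. Mx2 fell from 94.2 to 25.3 (log2 fold change −1.89, adjusted p = 4.34e-10), Bst2 from 900 to 404, the GTPase Irgm1 from 629 to 300 and the controlling factor Irf7 from 292 to 131, while Irf1 (196 and 205) did not pass in the authors' deposited table. Of 22 extracellular matrix genes, 6 were higher and 1 lower (median 0.36, and 0.655 under equal sums) in the authors' deposited table. That is 31.8% called, against 21.0% of all genes. The basement membrane collagens Col4a1 and Col4a2 rose from 342 to 831 and from 345 to 903, Tgfbr2, a receptor of TGF-beta, from 535 to 895, Mmp12, a macrophage elastase, from 2.65 to 15.9, and the fibrillar collagens Col1a1 (26.8 and 40.6) and Col3a1 (80.7 and 123) did not pass in the authors' deposited table. Fn1, fibronectin, which hepatocytes secrete, fell from 14719 to 9290 in the authors' deposited table.

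The cytoskeletal families here were gathered after their values were seen. Of 11 tubulins, 6 rose and none fell in the authors' deposited table, which is 54.5% called against 21.0% of all genes. Tubb2a rose from 430 to 6560 (log2 fold change 3.93) and Tubb2b from 2.91 to 129 (5.40), and Tubb4b, Tubb5, Tuba1b and Tuba1c had 1.49, 1.30, 1.59 and 1.14 in the authors' deposited table. Of 24 cytoplasmic actin and actin-binding genes, 5 rose and 1 fell in the authors' deposited table, which is 25% called against 21.0% of all genes. Actb, cytoplasmic beta actin, which is often used as a reference gene, rose from 2361 to 9227 (1.97, adjusted p = 2.81e-25) in the authors' deposited table. In the authors' deposited table Pfn4, a profilin, fell from 11.3 to 1.90, and Cfl1, cofilin (1629 and 1800), Pfn1 (1807 and 2314), Actn4 (2758 and 3351), Tmsb4x (732 and 550) and the 7 Arpc genes of the Arp2/3 complex did not pass. Annexins rose in 3 of 10 and keratins in 3 of 8, with none lower, in the authors' deposited table. That is 30% and 37.5% called, against 21.0% of all genes, in small families. Krt79, a keratin that rose, was listed at 0 in the reference group and at 13.4 in the Cpt2 group. Anxa5 and Anxa2, membrane-binding annexins, rose from 514 to 4599 and from 79.7 to 374, and the hepatocyte keratins Krt8 and Krt18 from 2947 to 5456 and from 1894 to 4357 in the authors' deposited table. Vim, vimentin of mesenchymal cells (294 and 196), and Krt19 (22.2 and 9.48) did not pass in the authors' deposited table.

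Other housekeeping families were counted the same way. Of 39 genes that match the proteasome family, 11 rose and 2 fell in the authors' deposited table, which is 33.3% called against 21.0% of all genes. Psmd8 (1770 to 4525) and Psmb5 (823 to 1742) rose, and the immunoproteasome subunits Psmb8 (160 to 88.8) and Psmb10 (254 to 160) fell. Of 17 cytosolic tRNA synthetases, 9 were higher and none lower (52.9% called, median 0.44) in the authors' deposited table, with Sars going from 767 to 1369. Of 77 cytosolic ribosomal protein genes, 10 were higher and none lower (median 0.25) in the authors' deposited table, and this 13% called lies below the share of all genes. The largest of these, Rpl34 (42.0 to 1901, log2 fold change 5.48), had a processed pseudogene, Rpl34-ps1, that went from 1953 to 61.1 (−5.00) in the authors' deposited table. The Cpt1a knockout over the same reference group had 6.06 for Rpl34 and −4.41 for Rpl34-ps1. Which of such near-identical copies a read was counted for is uncertain, and these changes are given as values only.

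Of 19 clock genes, 4 were higher and 8 lower (median −0.44, and −0.153 under equal sums) in the authors' deposited table. Nr1d1, a repressor of the clock, rose from 359 to 1339 (log2 fold change 1.90, adjusted p = 1.23e-21) and Bhlhe41 from 19.8 to 138, while Arntl, which Nr1d1 represses, fell from 152 to 60.9, Nfil3 from 565 to 72.0 and Cry1 from 412 to 70.2 in the authors' deposited table. The hour at which the livers were taken is not given in the sources used here, and its part in these values was not tested. Proliferation genes had 3 higher and 3 lower of 18 (median −0.31, and −0.017 under equal sums) in the authors' deposited table. That is 33.3% called, against 21.0% of all genes. Rrm2 fell from 111 to 18, Birc5 from 48.9 to 7.10, and Ccnd1, cyclin D1, rose from 74.7 to 166 and Mcm2 from 17.8 to 72.7 in the authors' deposited table.

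The Cpt1a knockout gives a point of comparison. The authors' deposited table of the Cpt1a knockout over the Cpt2 group called 5106 of 17755 genes (28.8%). That table and those against the reference group share their groups, so the comparisons are not independent, and the 16 genes set side by side were chosen after their values were seen. Ehhadh had a log2 fold change of 3.28 in the Cpt2 group and 2.25 in the Cpt1a knockout, each over the reference group, in the authors' deposited tables. For Srxn1 the values were 2.78 and 0.56, for Cidec 3.51 and 1.74, and for Psat1 4.74 and 1.84 in the authors' deposited tables. The Psat1 value of the Cpt1a knockout was not called (adjusted p = 0.0532 in the authors' deposited table). Akr1d1 had −4.49 and −1.10, Cyp3a11 −3.23 and −1.33, and Ass1 −2.02 and −1.87 in the authors' deposited tables. The direct comparison of the Cpt1a knockout with the Cpt2 group gave −1.05 for Ehhadh (adjusted p = 1.31e-05), −2.23 for Srxn1 (adjusted p = 2.12e-44), 3.38 for Akr1d1 (adjusted p = 4.16e-33) and 0.14 for Ass1 (adjusted p = 0.551) in the authors' deposited table. Hspa5 had −0.55 in the Cpt2 group and −1.54 in the Cpt1a knockout (adjusted p = 0.0664 and 6.40e-10) in the authors' deposited tables. Gpnmb, Nupr1 and Elovl7 were not listed in the table of the Cpt1a knockout over the reference group. That table lists 4461 genes, against 23399 for the Cpt2 group, so absence from it is not read as a result. In the Cpt1a knockout over the Cpt2 group, Gpnmb, Nupr1 and Elovl7 had −5.50, −5.32 and −5.46 in the authors' deposited table. In the 4 Cpt1a knockout livers, Gpnmb stood at 0.0818, 0.112, 0.106 and 0.0586 FPKM, and Ehhadh at 2449, 1289, 1470 and 1404 FPKM. All 4 livers were thus near 0 for Gpnmb, and liver 1 was the highest for Ehhadh.

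**Figure D5:**
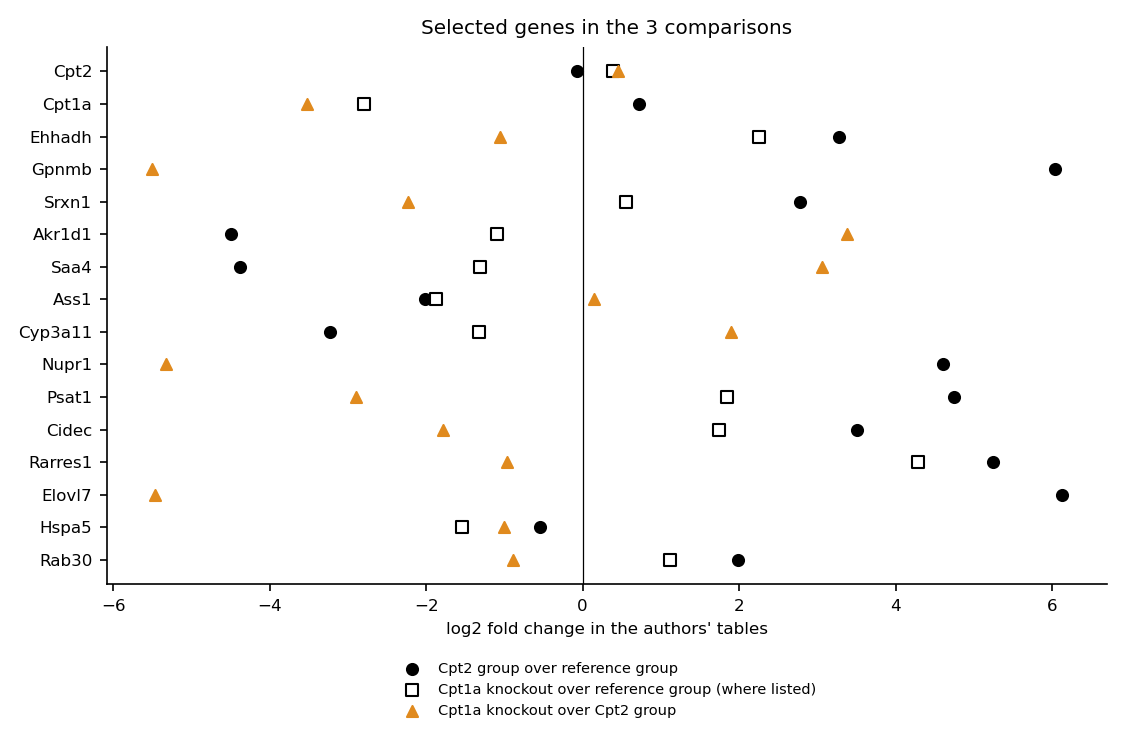
Log2 fold changes of 16 genes in the authors' tables, with circles for the Cpt2 group over the reference group, squares for the Cpt1a knockout over the reference group where listed, and triangles for the Cpt1a knockout over the Cpt2 group. For Ass1 the circle and the square lie close together (−2.02 and −1.87), and for Srxn1 they lie apart (2.78 and 0.56).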

How the data were processed

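The gene lists, the families, the genes set side by side and the promoter elements were chosen with earlier results of these data known. Per the submitters' processing notes, HISAT2 and the build GRCm38 (mm10) were used. Which counter, annotation, strand setting and test stand behind the tables is not given in the sources used here. For each gene, the authors' deposited tables hold the log2 fold change with its p-value, raw and adjusted, and a normalized mean per group, per the file headers. Genes with an adjusted p of 1 were taken as untested, and the values below 1 follow a Benjamini-Hochberg adjustment over 17475 genes. The log2 ratio of the means differed from the log2 fold change by a median of 0.003. Raw read counts and FPKM per gene were deposited by the authors for the 4 Cpt1a knockout livers, with 13138884 to 14116441 counts and 19732 to 20258 genes with a count per liver. A further 8 per-sample columns of the count table match no sample and were not used in any step.

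Genes were called at an adjusted p below 0.05, with the sign of the log2 fold change. The rule named Cpt2, Cpt1a, the 12 protein-coding genes per direction that had the smallest adjusted p and changed at least 2-fold, the 4 smallest in each of 41 lists (29 of pathways and 12 of cell types), and the 6 largest folds per direction among called protein-coding genes with a mean of at least 100. Other genes named, among them Rab30, Ppara, Hnf4a, further list members and all family members, were chosen after their values were seen. Medians and means were computed with Python 3.11.15, pandas 2.3.3, numpy 2.4.6 and scipy 1.17.1, and figures drawn with matplotlib 3.10.9. Promoters came from RefSeq (GRCm38.p6). The calling step was tested on simulated data. Alternatives were other thresholds on the adjusted p and the fold, another set of genes for the adjustment, a minimum mean of 10, protein-coding genes only, and other centres of the fold changes. Some genes are not reported here.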

Additional observations from a re-analysis of the deposited data

Results flagged for a closer look

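Several genes of the Cpt2 comparison differed between the Cpt2 group and the Cpt1a knockout in the authors' direct test, the deposited table of the Cpt1a knockout over the Cpt2 group. Lower in the Cpt1a knockout by log2 fold change were Cpt1a (−3.52), Gpnmb (−5.50), Elovl7 (−5.46), Nupr1 (−5.32), Psat1 (−2.90), Srxn1 (−2.23), Cidec (−1.79), Ehhadh (−1.05), Hspa5 (−1.0), Rarres1 (−0.97) and Rab30 (−0.89). Higher there were Akr1d1 (3.38), Saa4 (3.06) and Cyp3a11 (1.89). The genes were chosen after their values were seen, 28.8% of all genes passed this test, and whether both groups were sequenced together is not given in the sources used here.

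Among the 4 Cpt1a knockout livers, 1 liver stood far from the other 3 for Ehhadh (2449 FPKM, against 1289 to 1470), for Ass1 (440 FPKM, against 613 to 646) and for Hspa5 (34.4 FPKM, against 59.8 to 61.7). The liver is number 1 for Ehhadh and number 4 for Ass1 and Hspa5. Chance gives such a gap in about 1 in 20 groups, and the 16 genes set side by side were all looked at in this way.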

How the results depend on the processing

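The planned test on counts per mouse was not run, because the 8 columns could not be assigned to groups, and no library could be left out. No paired analysis was possible because the groups have no columns with replicate numbers. A fold threshold of 1.5 in place of 2 gave 3119 called genes, 1509 higher and 1610 lower, and one of 4 gave 716, 330 higher and 386 lower. Scaling to equal sums, chosen after seeing the data and with the deposited adjusted p kept, moved the genes changed at least 2-fold to 1265 higher and 765 lower. It turned the sign of 9 list medians, to 0.201 for omega-oxidation, 0.258 for de novo lipogenesis, 0.18 for gluconeogenesis, 0.241 for mitochondrial genome genes, 0.15 for nuclear oxidative phosphorylation, 0.207 for the tricarboxylic acid cycle, 0.205 for phagocyte lysosome genes, 0.156 for endothelial and 0.269 for lymphocyte markers. The other 32 list medians kept their sign and moved by the same 0.292, which follows from the shift itself, so negative ones shrank, as for proliferation (−0.017), Kupffer cell (−0.078), cholesterol (−0.132) and clock genes (−0.153). Centring on the median of all genes turned the lymphocyte markers alone, to 0.003. Other thresholds on the adjusted p (0.01 and 0.1), adjustment over every gene with a p, a mean of at least 10 and protein-coding genes only kept all counts over all genes within 1.5 times. For single lists, the count moved by more in 6 of 41 at 0.01, to 6 for interferon-stimulated, 9 for unfolded protein response, 5 each for omega-oxidation and tricarboxylic acid cycle genes and 0 each for stellate cell and lymphocyte markers, and in 1 of 41 at a mean of at least 10, to 0 for female-biased genes.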

Other observations

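Some abundant genes with large differences carry no adjusted p below 1 in the authors' deposited table, and so stand outside all counts. Ddit4, a stress-induced inhibitor of mTORC1, had means of 2048 in the reference group and 204 in the Cpt2 group, and Igfbp1, an IGF-binding protein of fasting, 16371 and 7803 in the authors' deposited table. Saa2, of the serum amyloid A family, had 596 and 23.4 in the authors' deposited table. Gm13394, a processed pseudogene chosen after its values were seen, went from 4548 to 30.4 (adjusted p = 1.37e-154) in the authors' deposited table. In the Cpt1a knockout over the same reference group it had a log2 fold change of −8.87. Which gene its reads come from is uncertain, and these values are given as values only.

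Protein-coding genes were called in 23.1% of 13882 tested, long intergenic RNAs in 23.0% of 625, antisense genes in 12% of 675 and processed pseudogenes in 8.76% of 948 in the authors' deposited table. For antisense genes and pseudogenes, reads of the overlapping or parent gene cannot be told apart without knowledge of the strand and of multiple matches.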
